A study of Drosophila melanogaster with 6 samples.

Results

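Enigma, the gene Egm (CG9006) of Drosophila melanogaster, was followed together with 5 relatives from the family of acyl-CoA dehydrogenases, Arc42, CG4860, CG9547, Acadvl and CG6638. Members were taken by gene symbol, and each of the 6 had 1 probe set among the 13966 probe sets that are not array controls. Of the 6, 5 were tested, since they were above a log2 value of 4 on at least 3 of the 6 arrays, as were 6975 probe sets in all. The cells were Kc-167, an established embryonic Drosophila line with features of haemocytes. Enigma RNAi cells received double-stranded RNA against Enigma for 5 days, and control RNAi cells received one against the bacterial beta-lactamase gene, which has no counterpart in these cells' genome. All cells were first held for 1 hour with 20 µg of the RNA in medium without serum, and each group had 3 arrays numbered 1 to 3. A pair below is the Enigma RNAi and the control RNAi array of that number. Separate cultures for the replicates are not stated in the labels, and the p-values then cover only the variation among these 6 samples, possibly technical.

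Acyl-CoA dehydrogenases are flavoproteins of the mitochondrion that introduce a double bond into an acyl-CoA, the opening step of each round of fatty acid beta-oxidation. They pass the electrons to the electron transfer flavoprotein and on to the respiratory chain. Members differ in the acyl chain they accept, and some act on products of amino acid breakdown instead of on fatty acids. Enigma is a mitochondrial protein related in sequence to these enzymes, and RefSeq lists dACAD9 among its other names. In human cells ACAD9 is also needed to assemble respiratory complex I.

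Expression is given as GCRMA values in log2 units, and every difference is Enigma RNAi minus control RNAi in the same units. The number of arrays, 3 per group, limits their precision. Of the 13966 probe sets that are not controls, between 6739 and 7376 lay above 4 on an array, with array medians from 3.90 to 4.13. Markers of cell types were read beside these counts. Of 9 plasmatocyte genes with a probe set, 5 were above 4 on all arrays, among them Hml. NimC1 and crq were above it on none. The markers of fat body, muscle and lamellocytes included 0 genes above 4 on all arrays, of 3, 3 and 2 with a probe set. Above 4 on all arrays were also 1 of 3 crystal cell markers, lz, 2 of 3 neuronal markers, elav and brp, and 1 of 3 germline markers, bam. With so many probe sets above 4 on each array, these marker counts do not settle the cell type. RNA quality was read from the eIF4A control probe sets, whose 3' minus 5' log2 signal was 1.71 ± 0.22 in Enigma RNAi cells and 1.38 ± 0.14 in control RNAi cells (SD, n = 3), higher in 3 of 3 pairs. These eIF4A groups did not overlap (exact two-sided permutation p = 0.1, the smallest that 3 against 3 arrays allows). The same measure differed by 0.17 for actin, higher in 3 of 3 pairs, and by 0.07 for Gapdh, higher in 2 of 3 (exact two-sided permutation p = 0.4 for each). The part of these differences in the results below was not tested.

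The Egm transcript was far lower after Enigma RNAi, while its tested relatives lay near their control levels. Egm measured 3.24, 3.51 and 4.21 in Enigma RNAi cells 1 to 3, against 6.00, 6.41 and 6.71 in control RNAi cells 1 to 3. The groups did not overlap, and the highest Enigma RNAi value was far below the lowest control value. Means were 3.65 ± 0.50 after Enigma RNAi and 6.38 ± 0.36 after control RNAi (SD, n = 3). In bulk RNA, fewer cells that carry a transcript and less of it per cell cannot be told apart.

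Read as a share of the control level, the Egm signal was 14.8% in pair 1, 13.3% in pair 2 and 17.6% in pair 3. Over the groups it was 15.1%, with a 95% confidence interval from 9.39 to 24.4%, or from 12.7 to 18% when the fit was blocked on replicate number. The difference of -2.72 had a standard error of 0.29 without the block and did not pass (limma, adjusted p = 0.283), whereas with the block it had a standard error of 0.11 and passed (limma, adjusted p = 0.000118). Without the block 0% of tested probe sets passed, with 4.26% at an unadjusted p under 0.05, and with it 0.631% passed. The groups did not overlap for 8.97% of tested probe sets, and the exact two-sided permutation p of Egm was 0.1, the smallest that 3 against 3 arrays allows. After Enigma RNAi only 1 of 3 values was above 4, against 3 of 3 in controls. With lower values raised to 4 the difference was -2.31, or at least 4.95-fold lower. The deposited table does not show whether the double-stranded RNA covers the stretch of Egm that the probes read.

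**Figure D1:**
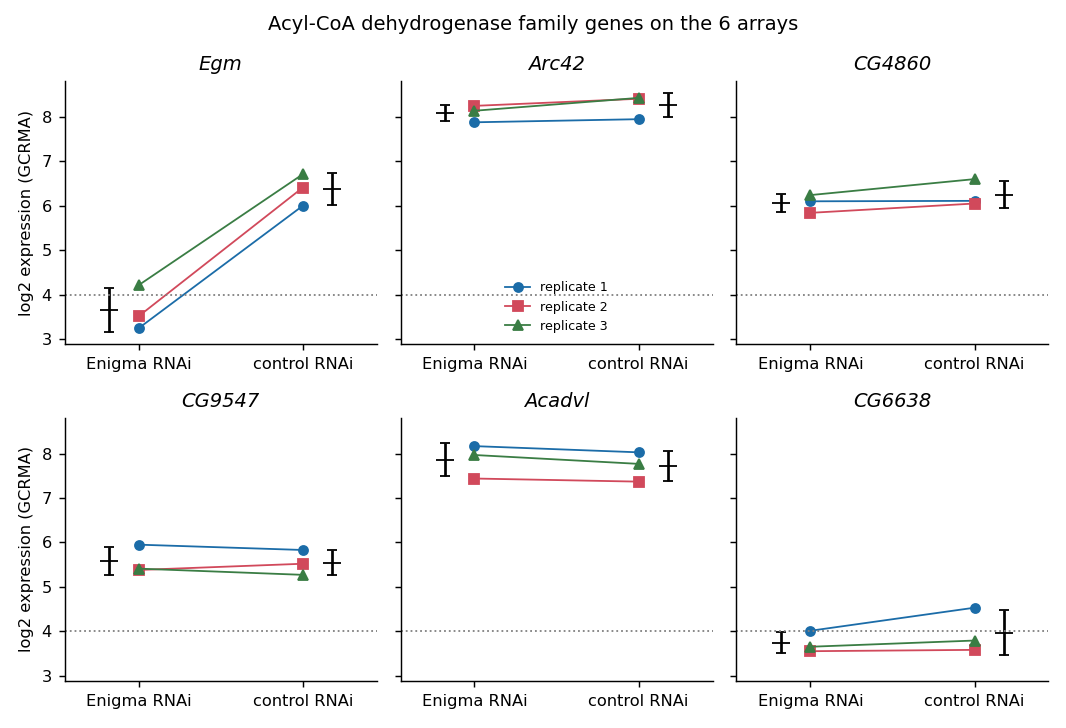
Log2 expression of the 6 family genes, with Enigma RNAi on the left and control RNAi on the right of each panel; a line joins the arrays of 1 replicate number, bars beside them give the mean ± SD (n = 3), and the dotted line marks 4. The Egm lines run from 3.24 to 4.21 in Enigma RNAi cells and from 6.00 to 6.71 in control RNAi cells, while the groups of each other gene overlap; heights are not comparable between genes.

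Among all tested probe sets, Egm had the largest difference in either direction. The next largest fall in the mean was that of Echs1, at -1.10, and the largest rise in the mean was that of Ugt302K1, at 2.05. Egm still had the lowest difference when values under 4 were raised to 4. It also had the smallest p of the 6975 without and with the block. Egm passed the filter through its control arrays, with 3 of 3 above 4, against 1 of 3 after Enigma RNAi. Its ranks among tested probe sets are thus descriptions and give no further support to its fall.

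**Figure D2:**
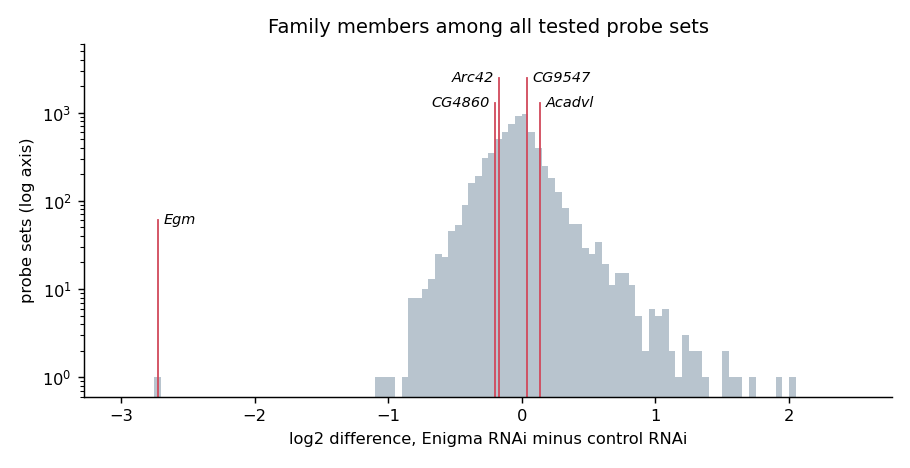
Distribution of log2 differences (Enigma RNAi minus control RNAi) over the 6975 tested probe sets, with the number of probe sets on a log axis; red lines mark the 5 tested family members. Egm lies alone at -2.72, while the other 4 lie between -0.20 and 0.14, inside the bulk of the distribution.

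Acadvl and CG4860 stand for dehydrogenases of fatty acid chains. Acadvl, whose RefSeq names include dACADVL after the human enzyme for very long chains, measured 8.17, 7.44 and 7.97 in Enigma RNAi cells 1 to 3, against 8.03, 7.37 and 7.77 in control RNAi cells 1 to 3. Array 2 was lowest and array 1 highest in both groups, and the groups overlapped. The pair differences were 0.14, 0.07 and 0.20, so that Acadvl was higher in 3 of 3 pairs, as were 15.0% of tested probe sets. The difference of 0.14 had a 95% interval from -0.44 to 0.71, or from -0.07 to 0.35 with the block, and did not pass in either fit (limma, adjusted p = 0.999 without and 0.473 with the block). In percent of the control level the interval ran from 73.8 to 164%, or from 95 to 127% with the block.

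For CG4860, RefSeq lists the names of different human family members, ACAD11 and the short-chain enzyme ACADS, and so does not settle its chain length. CG4860 measured 6.10, 5.84 and 6.24 in Enigma RNAi cells 1 to 3, against 6.11, 6.05 and 6.60 in control RNAi cells 1 to 3. The groups overlapped, with array 3 highest and array 2 lowest in each. Its pair differences were -0.02, -0.21 and -0.37, unequal in size but of 1 sign. The difference of -0.20, with an interval from -0.64 to 0.25, or from -0.44 to 0.04 with the block, did not pass (limma, adjusted p = 0.999 without and 0.348 with the block). As a share of control, the interval was 64.1 to 119%, or 73.9 to 103% with the block.

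Arc42 was named after a protein purified with a transcriptional cofactor complex, and its sequence places it with the short-chain acyl-CoA dehydrogenases. It measured 7.88, 8.25 and 8.14 in Enigma RNAi cells 1 to 3, against 7.95, 8.41 and 8.43 in control RNAi cells 1 to 3. Array 1 was the lowest of each group, and the groups overlapped. The pair differences were -0.08, -0.16 and -0.29, lower in 3 of 3 pairs, as were 25.2% of tested probe sets. The difference of -0.17, with an interval from -0.59 to 0.24, or from -0.39 to 0.04 with the block, did not pass (limma, adjusted p = 0.999 without and 0.365 with the block). The interval was 66.4 to 118% of the control level, or 76.1 to 103% with the block.

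CG9547 and CG6638 belong to the branches of the family that serve amino acid breakdown. CG9547, by sequence a glutaryl-CoA dehydrogenase of lysine and tryptophan breakdown, measured 5.95, 5.38 and 5.41 in Enigma RNAi cells 1 to 3, against 5.83, 5.52 and 5.27 in control RNAi cells 1 to 3. Array 1 was the highest of each group, and the groups overlapped almost entirely. Its pair differences of 0.11, -0.14 and 0.14 had no common sign. The difference of 0.04, with an interval from -0.47 to 0.54, or from -0.19 to 0.27 with the block, did not pass (limma, adjusted p = 0.999 without and 0.902 with the block).

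CG6638, by sequence an isovaleryl-CoA dehydrogenase of leucine breakdown, measured 4.01, 3.55 and 3.65 in Enigma RNAi cells 1 to 3, against 4.53, 3.58 and 3.79 in control RNAi cells 1 to 3. Array 1 alone reached 4 in each group, so the gene was above the filter on 2 of 6 arrays and was not tested with the rest. Its pair differences were -0.51, -0.04 and -0.13, and pair 1 gave most of the mean difference of -0.23, which turned to 0.054 without control RNAi replicate 1. With no filter the difference had an interval from -0.85 to 0.40 and did not pass (limma, adjusted p = 1), nor did it with the block (limma, adjusted p = 0.470).

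**Figure D3:**
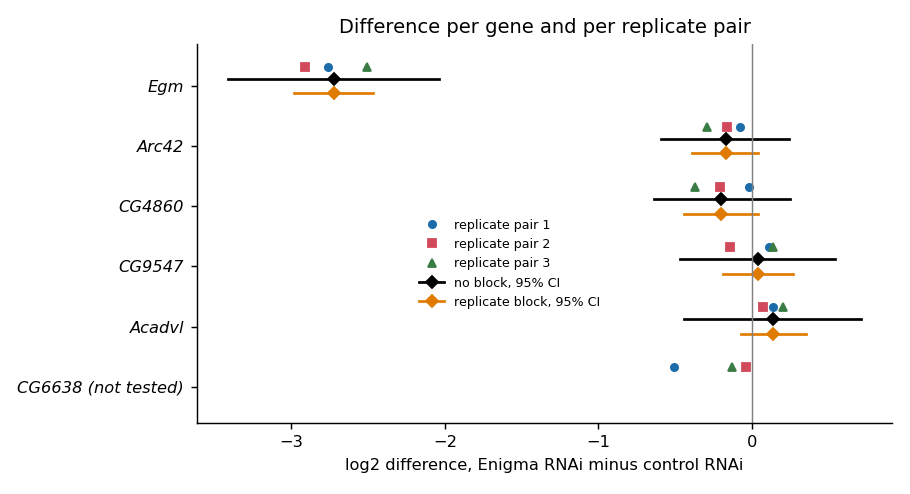
Log2 difference, Enigma RNAi minus control RNAi, for each family gene: coloured points are the 3 replicate pairs, diamonds the mean difference with its 95% confidence interval without (black) and with (orange) the replicate block. CG6638, which was not tested, has points only. The Egm intervals lie between -3.41 and -2.04, and those of Arc42, CG4860, CG9547 and Acadvl include 0 in both fits.

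The change of Egm beside its relatives was read on its level minus the mean level of Arc42, CG4860, CG9547 and Acadvl on the same array. Such a gap holds the probes' own brightness, and only its change between groups is read. It was -3.78, -3.22 and -2.73 in Enigma RNAi cells 1 to 3, against -0.98, -0.42 and -0.31 in control RNAi cells 1 to 3. The groups did not overlap. The gap differed by -2.67, with an exact two-sided permutation p of 0.1, the smallest possible with 3 against 3 arrays. When arrays were exchanged within pairs, the exact permutation p was 0.25, again the smallest possible. Neither p could fall under 0.05 with these arrays. Egm was the target of the RNAi and passed the filter through its control arrays. The gap is thus a description and gives no further support to the fall of Egm. The mean of the 4 relatives alone differed by -0.05 (exact two-sided permutation p = 0.7).

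The members divided by what their levels followed. For Egm, the group accounted for 93.7% of the sum of squares over the 6 arrays and the replicate number for 6.0%. For the relatives it was the other way round, with the replicate number at 78.6% for Arc42, 72.3% for CG4860, 93.2% for CG9547, 93.9% for Acadvl and 79.6% for CG6638. The group took between 0.6% of CG9547 and 18.3% of CG4860. Over all tested probe sets the median was 11.7% for the group and 65.4% for the replicate number, so the relatives lay on the same side as most genes. Only 7 of the 6975 probe sets, Egm among them, had a group share at least as high as that of Egm, which entered the 6975 through its control arrays.

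The direction of the replicate pattern was not shared within the family. Array 1 was the highest of both groups for CG9547, Acadvl and CG6638, and the lowest of both for Arc42 and Egm. CG4860 was highest on array 3 and lowest on array 2 in each group. The spread within groups, as a pooled SD, ran from 0.23 for Arc42 to 0.43 for Egm, against a median of 0.19 over all tested probe sets, and that of Egm was above 89.8% of them.

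**Figure D4:**
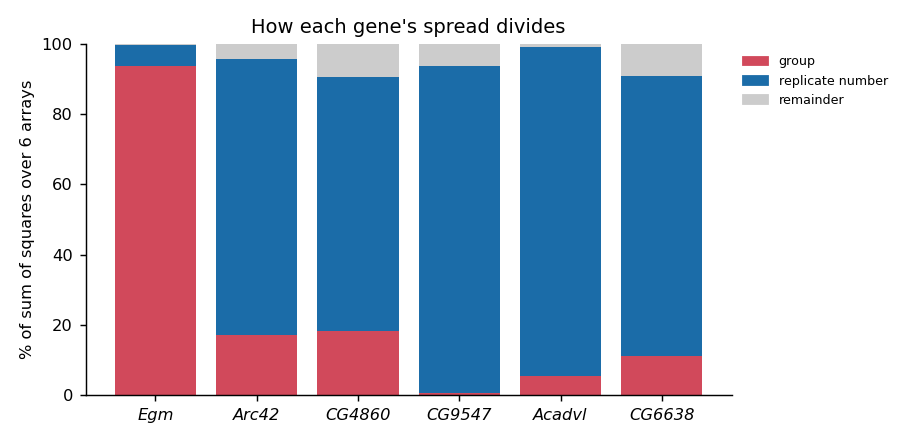
Share of each gene's sum of squares over the 6 arrays, in percent, that goes with the group (red), with the replicate number (blue) or with neither (grey). The group takes 93.7% of Egm and at most 18.3% of any relative.

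The genes whose levels followed Egm most closely over the 6 arrays were CG15356 (r = 0.987), scu (r = 0.977), Rbfox1 (r = 0.970), l(1)G0320 (r = 0.961) and Nup62 (r = 0.956). These correlations are descriptions over 6 arrays that share group and replicate number. Most of the spread of Egm lay between the groups. A high r with it therefore needs a fall after Enigma RNAi that is large against the spread within groups. CG15356, at 4.54, 4.56 and 4.59 in Enigma RNAi cells 1 to 3 against 4.69, 4.75 and 4.73 in control RNAi cells 1 to 3, split cleanly but differed by only -0.16. The RNA-binding protein gene Rbfox1 differed by -0.44, l(1)G0320 by -0.46 and the nuclear pore gene Nup62 by -0.23. None of the 5 passed in the fit without the block (limma, adjusted p = 0.999 for each) or with it (limma, adjusted p from 0.0689 to 0.371).

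The other members had different companions. Arc42 was closest to bon, a chromatin cofactor gene (r = 0.988), and RhoGAP18B (r = 0.984), and CG4860 to CG7332 (r = 0.996) and CG1827 (r = 0.992). CG9547 was closest to RfC4, a clamp loader subunit (r = 0.995), and Tpr2 (r = 0.993), and Acadvl to CG32772 (r = 0.996) and TfIIEbeta, a general transcription factor subunit (r = 0.994). RfC4, for example, measured 10.63, 10.32 and 10.33 in Enigma RNAi cells 1 to 3 against 10.60, 10.42 and 10.24 in control RNAi cells 1 to 3, highest on array 1 of each group, as CG9547 was.

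Genes that supply the dehydrogenases or use their products were described as 5 lists of 47 genes. Of these, 38 had a probe set annotated to that gene alone, and 33 were tested. Of the 33, 0 passed without the block, 1 fell with it and 0 rose, against 0.272% and 0.358% of all tested probe sets that fell and rose with it. With replicate number as a random effect, at an estimated correlation, 0 of the 33 passed, the lowest adjusted p in limma being 0.12. Of further dehydrogenases and acyl-CoA oxidases, only 2 of the 5 with a probe set were tested. The dehydrogenases Mcad and CG3902 of this list had no probe set annotated to them alone, so no value is given for them. The peroxisomal oxidase Acox57D-d differed by 0.02 and CG4586 by 0.17, while Acox57D-p, Acox3 and CG17544 did not reach the filter. Of the 3 genes listed for electron transfer, only wal had such a probe set, and it was tested. The alpha subunit of the electron transfer flavoprotein, wal, which accepts the electrons, measured 8.40, 7.91 and 8.16 in Enigma RNAi cells 1 to 3 against 8.51, 8.14 and 8.22 in control RNAi cells 1 to 3. Those values overlapped, and wal differed by -0.13, or by -0.008 without Enigma RNAi replicate 2 (limma with the block, adjusted p = 0.501).

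Activation and import of fatty acids had all 8 genes tested, with a median difference of 0.046 against -0.031 over all tested probe sets, and 0 passed in either fit. The acyl-CoA synthetase bgm measured 4.07, 4.38 and 4.46 in Enigma RNAi cells 1 to 3, against 3.81, 4.03 and 3.59 in control RNAi cells 1 to 3. Its groups did not overlap, and its values lay close to the filter of 4. The bgm difference of 0.49 did not pass (limma with the block, adjusted p = 0.110). An exception was the blocked fit without replicate 1 (limma, adjusted p = 0.00905), in which 586 probe sets passed in all. A further synthetase of the list, pdgy, differed by 0.26, or by 0.16 without control RNAi replicate 3, and the carnitine carrier colt by -0.33, from -0.28 to -0.41 in the pairs and -0.17 without Enigma RNAi replicate 2, neither passing. The carnitine palmitoyltransferases of the outer and inner membrane, whd and CPT2, differed by 0.11 and -0.07.

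Beta-oxidation after the dehydrogenase step had 11 of 14 genes tested, 9 with a lower and 2 with a higher mean after Enigma RNAi, against 58.3% of all tested probe sets with a lower mean, and a median difference of -0.12. The enoyl-CoA hydratase Echs1, which acts directly on the product of the dehydrogenases, measured 8.36, 7.11 and 8.03 in Enigma RNAi cells 1 to 3, against 9.02, 8.45 and 9.33 in control RNAi cells 1 to 3. The groups did not overlap, and array 2 was the lowest of each. Echs1 fell by 1.10 with the block (limma, adjusted p = 0.0339) and did not pass without it (limma, adjusted p = 0.999). With the block its adjusted p in limma was 0.131 after quantile normalization and 0.125 after cyclic loess, 0.106 with no filter, 0.063 with a floor of 4, 0.101 without replicate 2 and 0.0930 without replicate 3, and it was 0.12 with replicate number as a random effect. The call was lost in each of these, and without Enigma RNAi replicate 2 its unblocked difference was -0.74. Echs1 passed in the blocked fit without replicate 1 (-1.32, limma, adjusted p = 1.04e-07), in which 586 probe sets passed in all. Its probe set carries a suffix that Affymetrix uses where probes can match several transcripts.

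The 3-hydroxyacyl-CoA dehydrogenase scu, which acts on the next step and was also the second gene closest to Egm, measured 8.09, 8.14 and 8.24 in Enigma RNAi cells 1 to 3, against 8.41, 8.62 and 8.67 in control RNAi cells 1 to 3. Its groups did not overlap. The difference of -0.42 did not pass (limma with the block, adjusted p = 0.0734). The thiolase Acat1 differed by -0.50, from -0.15 to -0.83 in the pairs, at -0.26 without control RNAi replicate 1 and -0.79 without control RNAi replicate 2, without passing (limma with the block, adjusted p = 0.111).

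Branched-chain amino acid and lysine breakdown, the pathways of CG6638 and CG9547, had 11 of 14 genes tested, 8 with a lower mean, 3 with a higher mean, a median difference of -0.25 and 0 that passed in either fit over all arrays. That median was -0.01 without control RNAi replicate 1. CG17896, by sequence a methylmalonate-semialdehyde dehydrogenase of valine breakdown, differed by -0.51, with pair differences of -0.09, -0.63 and -0.79, or by -0.22 without control RNAi replicate 3. Mccc1, a subunit of methylcrotonyl-CoA carboxylase, the enzyme after isovaleryl-CoA dehydrogenase in leucine breakdown, differed by -0.38, at -0.60 in pair 1, 0.05 in pair 2 and -0.57 in pair 3, or by 0.036 without control RNAi replicate 1. Hibch, a hydrolase of valine breakdown, differed by -0.37, most of it from the -0.78 of pair 3, or by -0.15 without control RNAi replicate 3. Their values overlapped between groups. In the blocked fit without replicate 1, CG17896 and Hibch passed (limma, adjusted p = 0.00156 and 0.0229), as did 586 probe sets in all.

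**Figure D5:**
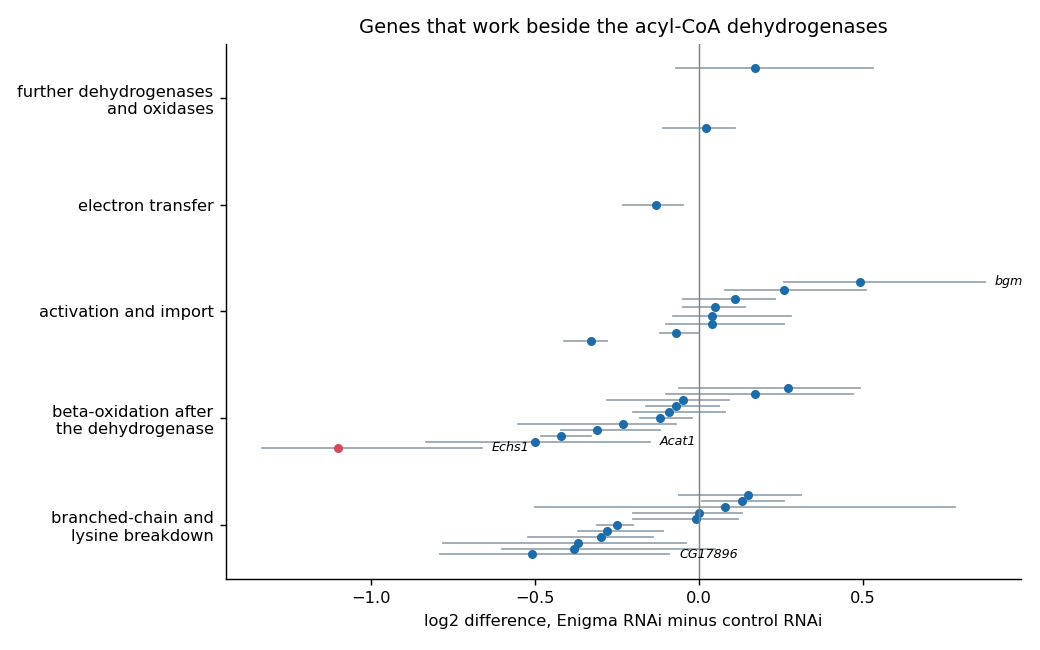
Log2 difference, Enigma RNAi minus control RNAi, for the 33 tested genes that work beside the acyl-CoA dehydrogenases, by list; points are means over 3 pairs, lines run from the lowest to the highest pair, and red marks a gene that passed with the replicate block. Echs1, at -1.10, is the red point.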

How the data were processed

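RNA was measured on 6 Affymetrix arrays, from about 8 µg of total RNA each. Per the submitters' processing notes, the authors made the deposited log2 values with GCRMA (version not given in the sources used here). No label states the scale, which was taken from the method and the range of -0.32 to 14.30. Of 14010 probe sets, 44 controls were left out. Gene names came from GEO's platform annotation, checked by Entrez number against RefSeq Release 6 plus ISO1 MT. No build is named for the array, so no coordinates are given.

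Probe sets above 4 on at least 3 arrays were tested, two-sided, in limma 3.58.1 (R 4.3.3; lmFit, then eBayes). The threshold was 0.05 after Benjamini-Hochberg adjustment over all of them. Single values were tested with exact permutation tests. The fit without a block was the main one. Arrays of 1 replicate number deviated together from their group means (r = 0.80, 0.64 and 0.65 across probe sets for numbers 1, 2 and 3), so blocked values are given beside it. This pairing comes from the values and the titles, not from a stated batch. The fits were also run on simulated data in which both groups shared the observed replicate effects. That setting favours the block, so it cannot decide between the fits.

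Members and lists were chosen with earlier results of these data known. By rule the text names all members, list genes past the threshold and the 3 largest differences per list, and, by r over the arrays, the 5 genes most like Egm and the 2 most like each other tested member. Exceptions are whd, CPT2, the filtered oxidases, Mcad and CG3902, named for their roles.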

Additional observations from a re-analysis of the deposited data

How the results depend on the processing

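The Egm difference kept its direction under every alternative run, from -3 to -2.31, and its call depended on the replicate block. It passed in limma with the block (-2.72, adjusted p = 0.000118), with a random block (-2.72, adjusted p = 0.00165), and, as alternatives chosen after seeing the data, with the block and quantile normalization (-2.72, adjusted p = 0.0254), cyclic loess (-2.72, adjusted p = 0.0151), no filter (-2.72, adjusted p = 0.00511) or a floor of 4 (-2.31, adjusted p = 0.00250). It passed with the block without replicate 1 (-2.71), 2 (-2.63) or 3 (-2.83), and without the block it passed under no alternative (adjusted p from 0.0655 to 1). Leaving out arrays or pairs gave -3 to -2.52 for Egm, -0.33 to -0.067 for Arc42, -0.30 to -0.025 for CG4860, -0.15 to 0.18 for CG9547, -0.039 to 0.35 for Acadvl, -0.42 to 0.054 for CG6638 and -2.93 to -2.41 for Egm minus its relatives. CG9547 thus reversed without Enigma RNAi replicate 1 (-0.15) or control RNAi replicate 3 (-0.098), and in the blocked fit without replicate 3 (-0.012), and Acadvl without Enigma RNAi replicate 1 (-0.017) or control RNAi replicate 2 (-0.039), and the untested CG6638 turned without control RNAi replicate 1 (0.054); the cause was not tested, and none of these relatives passed under any alternative in which it was tested. With a mean log2 of at least 6, Egm, CG9547 and CG6638 were not among the probe sets tested.

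The count of probe sets that passed was 0 without the block, 44 with it, 3 with a random block, 1 with the block and quantile normalization, cyclic loess or no filter, 0 without any 1 array, and, with the block, 586 without replicate 1, 2 without replicate 2 and 8 without replicate 3. With all arrays kept, the list medians that moved were those of activation and import (-0.073 with a mean of at least 6) and of beta-oxidation after the dehydrogenase (-0.22 with a mean of at least 6, -0.063 with quantile normalization). Leaving out arrays moved that list (-0.20 to -0.081), electron transfer (-0.25 to -0.008) and branched-chain and lysine breakdown (-0.32 to -0.013), and gave 0.001 to 0.11 for activation and import. The electron transfer value is that of wal alone. Of single list genes, leaving out arrays turned Mccc1 (-0.68 to 0.036), CG4586 (-0.035 to 0.29) and Acox57D-d (-0.10 to 0.11), and leaving out pairs with the block turned CG4586 (-0.005 to 0.30) and Acox57D-d (-0.003 and -0.017), none of which passed. Leaving out arrays or pairs gave -0.47 to -0.17 for colt and -0.79 to -0.26 for Acat1. Such fits gave -0.71 to -0.22 for CG17896, -0.55 to -0.15 for Hibch and 0.31 to 0.61 for bgm. The last 3 genes passed in the blocked fit without replicate 1.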
